A study of Sus scrofa with 8 samples.

Results

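The genes of the cytosolic ribosomal proteins were examined in pig embryonic fibroblasts (PEFs) for the peaks of 2 histone marks and of the architectural protein CTCF at their start sites. They were taken as the protein-coding genes of the RefSeq annotation of Sscrofa11.1 whose symbol is RPL or RPS followed by a number, together with RPLP0, RPLP1, RPLP2 and RPSA and without the RPS6K kinases. This gave 85 gene records under 84 symbols, out of 19487 protein-coding genes on chromosomes 1 to 18 and X. Of the 85, 77 were records of canonical ribosomal proteins, 7 were like-named paralogs, and RPS19BP1, which binds RPS19, was the only binding protein. The large subunit accounted for 52 records and the small subunit for 33, RPS19BP1 included. They lay on 17 chromosomes, with 13 on chromosome 1, 12 on chromosome 6 and 4 on chromosome X.

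ChIP-seq, in which DNA bound to a given protein or modified histone is pulled down with an antibody and sequenced, was performed for H3K4me3, H3K27ac and CTCF with 2 replicates each. All PEFs were untreated, were taken from Large White pig fetuses at 35 days of age, and were kept in culture for 24 h, so that there was no treated or mutant group. The labels give neither the sex of the fetuses nor whether they were pooled, nor whether the replicates were separate cultures, and the spread between replicates may therefore be technical. With 2 libraries against 2 the smallest exact permutation p would be 0.333, so values are described and not tested.

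Ribosomal proteins are assembled with ribosomal RNA in the nucleolus into the small subunit, which decodes the messenger RNA, and the large subunit, which joins amino acids. Their genes are dispersed over the genome, short and expressed in every dividing cell, and their messenger RNAs carry a 5′ terminal oligopyrimidine tract, a C followed by a run of C and T at the very start of the transcript, through which their translation follows growth signals. H3K4me3 marks the start of transcribed genes, H3K27ac marks active promoters and enhancers, and CTCF binds a defined DNA motif and halts loop extrusion by cohesin.

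The start sites of 8 members with the tract are shown because it is the sequence feature for which this gene family is known. Each line runs 5′ to 3′ from 60 bases before to 20 bases into the annotated transcript on the build Sscrofa11.1, and capitals mark the pyrimidine tract.
RPL32 (chr13:68793246-68793325, minus strand): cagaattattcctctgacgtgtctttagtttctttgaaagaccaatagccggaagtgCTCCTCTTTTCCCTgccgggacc
RPL7 (chr4:62602370-62602449, plus strand): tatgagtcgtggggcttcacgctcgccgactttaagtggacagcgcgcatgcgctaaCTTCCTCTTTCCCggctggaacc
RPL26 (chr12:53553434-53553513, minus strand): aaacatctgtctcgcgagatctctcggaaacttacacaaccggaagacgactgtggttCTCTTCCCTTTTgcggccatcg
RPL10 (chrX:124927189-124927268, plus strand): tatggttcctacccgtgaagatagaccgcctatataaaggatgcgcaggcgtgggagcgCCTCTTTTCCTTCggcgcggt
RPS26 (chr5:21431596-21431675, plus strand): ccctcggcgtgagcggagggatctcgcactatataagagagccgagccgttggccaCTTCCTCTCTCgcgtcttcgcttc
RPS20 (chr4:75762149-75762228, plus strand): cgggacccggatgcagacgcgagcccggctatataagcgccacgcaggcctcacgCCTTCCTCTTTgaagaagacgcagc
RPLP0 (chr14:40223924-40224003, minus strand): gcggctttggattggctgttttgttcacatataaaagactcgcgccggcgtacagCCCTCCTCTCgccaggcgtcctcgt
RPLP2 (chr2:507831-507910, plus strand): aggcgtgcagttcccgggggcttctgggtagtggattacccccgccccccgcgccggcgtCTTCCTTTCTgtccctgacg
In all 8 the annotated start base was itself a C within the tract. This exact arrangement, a C with at least 4 further pyrimidines beginning on the start base, was found in 18 of 85 members, or 21.2%, and in 3.18% of all protein-coding genes. A tract of 8 or more bases beginning with C within 20 bp of the start was present in 37.6% of the members and 15.0% of all genes. It was present in 13.5% of the mitochondrial ribosomal protein genes, whose products build a separate ribosome, and in 15.0% of the proteasome genes.

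Peaks at the gene starts were counted first. A peak was counted when it lay within 1 kb of the annotated start, and the peak with the highest fold enrichment over the control was taken as the lead peak. H3K4me3 was present in both replicates at 81 of 85 members (95.3%), compared with 68.9% of all protein-coding genes. H3K27ac was present in both at 82 members (96.5%), compared with 60.7%. Both marks were found together at 81 members (95.3%), compared with 58.9% of all genes. CTCF was present in both replicates at 30 members (35.3%), compared with 17.9% of all genes. Among genes that carried both histone marks, the CTCF share was 37.0% for the members and 24.5% for all genes. No member had a histone peak in only 1 replicate, whereas 6 members had a CTCF peak in replicate 2 only.

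**Figure D1:**
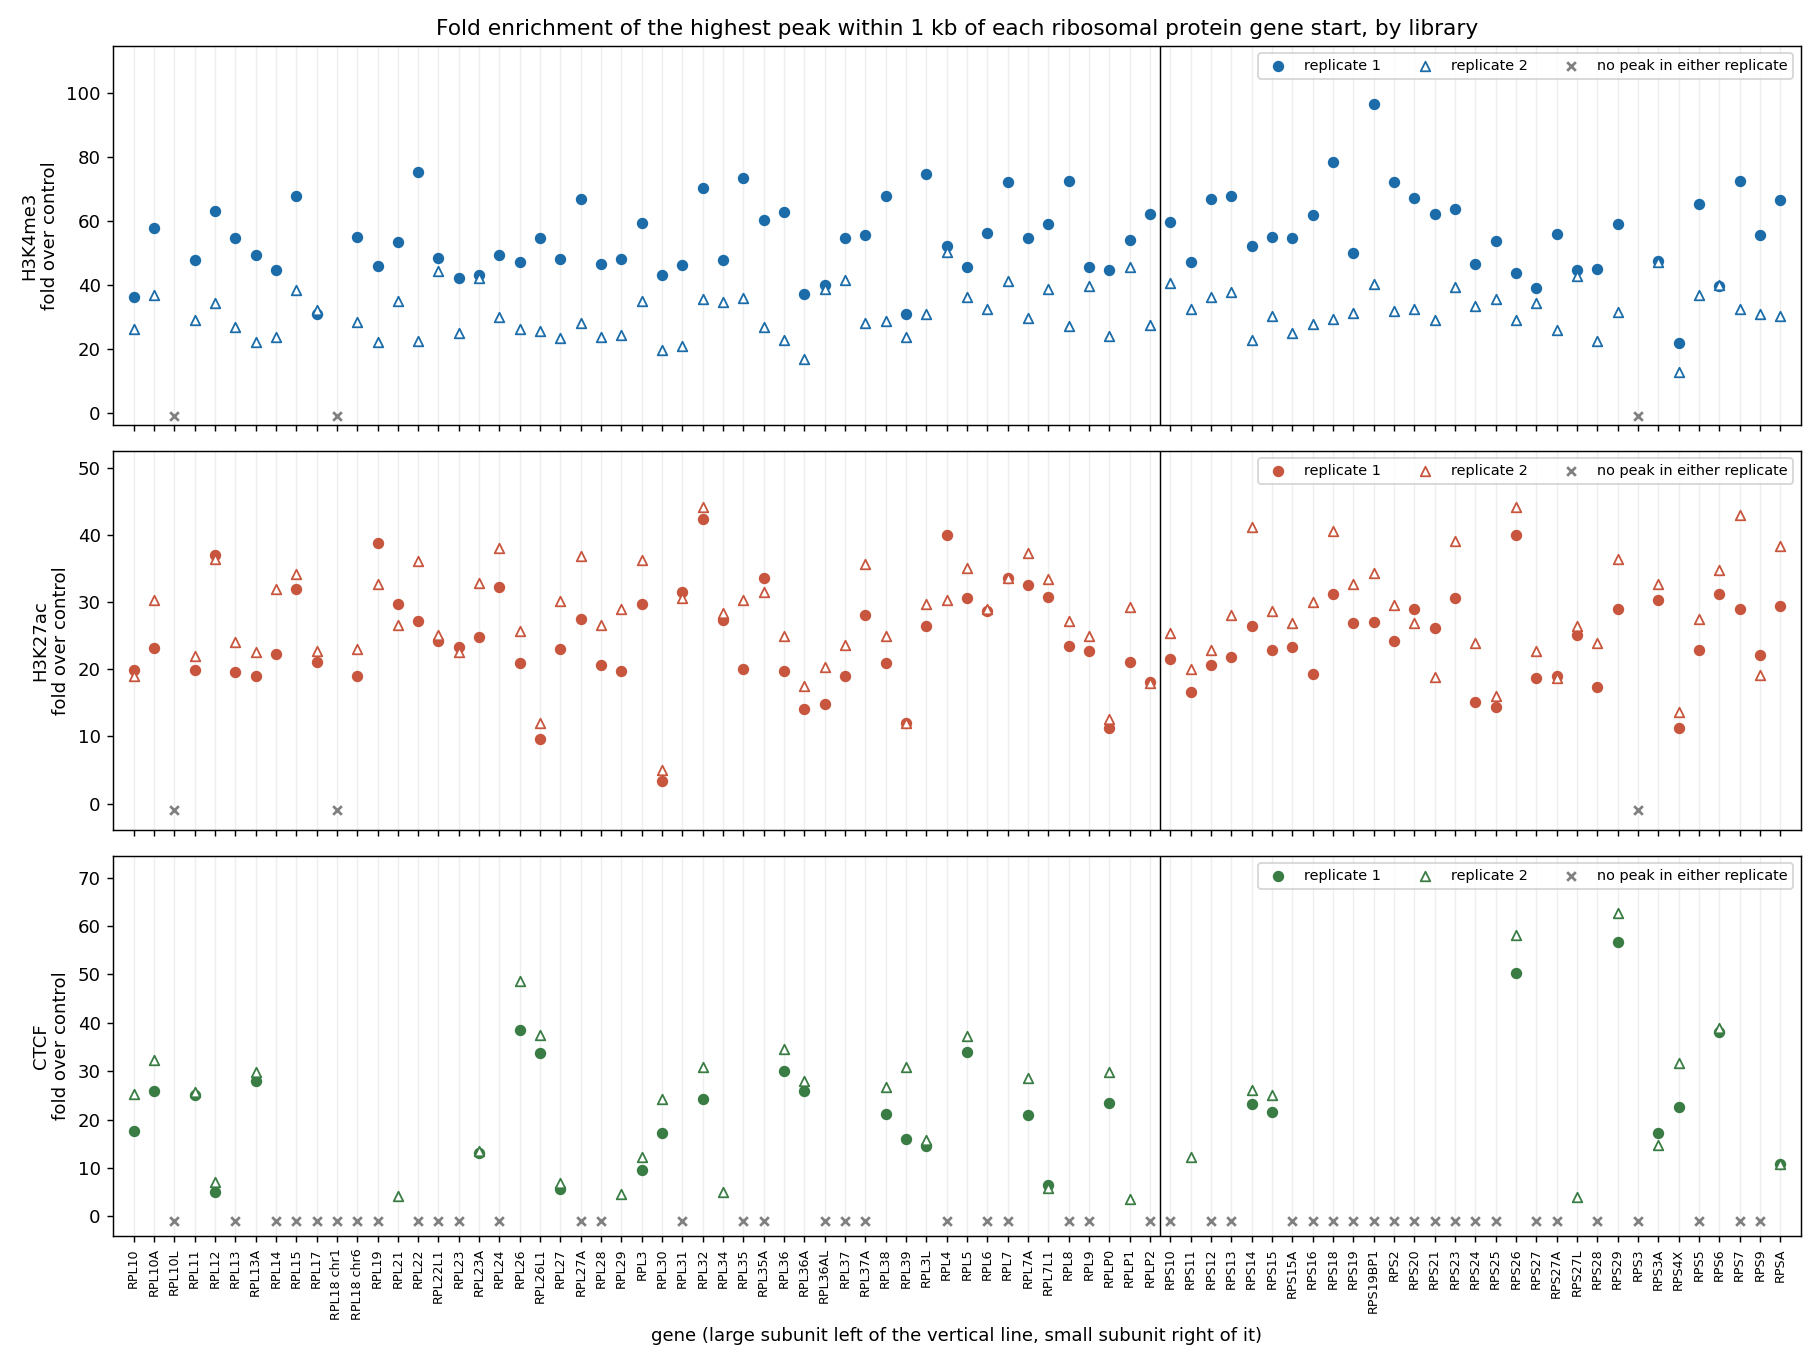
Fold enrichment over the control (vertical axes, no unit) of the lead peak at 82 of the 85 genes, with replicate 1 as filled circles, replicate 2 as open triangles and grey crosses for genes with no peak in either replicate. Of the genes drawn, 3 had no H3K4me3 peak, 3 had no H3K27ac peak and 47 had no CTCF peak.

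The few members without a mark at the annotated start were then examined. RPL18, a protein of the large subunit, is annotated at 2 places. The record on chromosome 6 (GeneID 100738912, start at position 53978681) had 7 exons with introns of 156 to 1211 bp, an H3K4me3 fold of 54.8 and 28.3, and an H3K27ac fold of 19.1 and 23.1 in replicates 1 and 2. The record on chromosome 1 (GeneID 751868, positions 84378453 to 84379052) had no peak of any kind within 1 kb in any library. It is 600 bp long, and its 5 annotated exons are divided by gaps of only 1 to 2 bp. Its spliced sequence of 593 bases matched 84.1% of its bases within the transcript from chromosome 6. The starts of both records are shown for comparison, with capitals for the longest pyrimidine tract of at least 5 bases whose first base is a C within 20 bp of the start. The record on chromosome 1 had none in that range.
RPL18, chromosome 6 (chr6:53978662-53978741, minus strand): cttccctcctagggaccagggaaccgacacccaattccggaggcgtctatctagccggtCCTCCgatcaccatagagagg
RPL18, chromosome 1 (chr1:84378393-84378472, plus strand): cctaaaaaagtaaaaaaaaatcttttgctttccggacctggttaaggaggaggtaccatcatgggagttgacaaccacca
Motifs were searched in a longer window than the one printed, from 250 bases before to 50 bases after the start. That window held the ETS and SP1 motifs on chromosome 6 and none of the 6 motifs searched on chromosome 1. In the same window the ratio of observed to expected CpG dinucleotides was 0.278 on chromosome 1, against 1.09 on chromosome 6.

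RPL10L, a paralog of RPL10 without introns that is known from testis, also lacked peaks of all 3 kinds. Its nearest H3K4me3 peak was 343864 bp away in replicate 1 and 158738 bp in replicate 2. RPS3, a protein of the small subunit at the messenger RNA entry channel, had none at its first annotated start on chromosome 9. However, a transcript that begins 12336 bp further downstream carried H3K4me3 with a fold of 66.5 and 30.3 and H3K27ac with a fold of 25.8 and 32.2. When the start of any annotated transcript was accepted, 83 of 85 members carried both marks, and the exceptions were RPL18 on chromosome 1 and RPL10L.

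Distant first starts also set the values of RPL30 and RPL13A. RPL30 is annotated over 18201 bp, and its first start had an H3K27ac fold of 3.35 and 5.0, the lowest of any member. The second start, 14660 bp downstream, had a fold of 21.5 and 21.7 and a peak of 4400 and 3919 bp in place of 1195 and 941 bp. RPL13A is annotated over 16981 bp, with a lead H3K4me3 peak of 1954 and 1723 bp at its first start. The transcripts that begin 13021 bp downstream had H3K4me3 peaks of 4434 and 4133 bp.

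The strength of the marks differed between them in how it compared with other genes. The median H3K4me3 fold was 54.6 and 30.8 over the 81 members, or 42.7 ± 16.8 (SD, n = 2). All protein-coding genes with a peak had a median of 52.0 and 25.2, and genes with both marks 55.50 and 26.96, so that the members' median was below the latter in replicate 1 and above it in replicate 2. The difference between the groups was smaller than the spread between the replicates. The median H3K27ac fold was 23.3 and 28.2 over 82 members, or 25.8 ± 3.52 (SD, n = 2), compared with 16.4 and 19.2 over all genes with a peak and 16.79 and 19.95 over genes with both marks. Both replicates thus had a higher median for the members than either had for all genes. Of the members with H3K27ac, 72 and 69 of 82 lay above the median of all genes.

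Members were ordered by the mean of both replicates, in which replicate 1 weighs more for H3K4me3. By this mean the highest H3K4me3 fold was seen at RPS19BP1, with 96.7 and 40.2, whereas in replicate 2 alone RPL4 was highest with 50.2. RPL7 with 72.3 and 41.2, RPL35 with 73.5 and 36.0, and RPS18 with 78.4 and 29.3 were also among the highest 5. RPS18 belongs to the small subunit and RPL7 and RPL35 to the large. The lowest means were those of RPS4X, RPL36A, RPL39 and RPL10, all on chromosome X, followed by RPL30 with 43.0 and 19.6.

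For the mean H3K27ac fold, RPL32 was highest with 42.4 and 44.2, followed by RPS26 with 40.02 and 44.2, RPL12 with 37.1 and 36.5, RPS7 with 29.0 and 43.0, and RPS18 with 31.3 and 40.5. RPS18 was thus among the highest 5 means for both marks, although its H3K4me3 fold in replicate 2 was below the median of the members. Besides RPL30, low folds were found at RPL26L1 with 9.69 and 11.95, RPLP0 with 11.2 and 12.7, and RPL39 with 12.05 and 12.04. RPLP0 anchors the stalk of the large subunit that recruits elongation factors, and it is often used as a reference gene for expression. Its partners in the stalk differed from it, with an H3K27ac fold of 21.2 and 29.3 at RPLP1 and of 18.08 and 17.99 at RPLP2.

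Ranks for the 2 marks were only loosely related. Spearman's rho between the H3K4me3 and H3K27ac folds was 0.347 and 0.270 over 81 members, given as a description, since both marks share gene and cells. Over the 77 autosomal members it was 0.261 and 0.178. The 2 replicates of H3K4me3 had a rho of only 0.244 with each other, so the differences in rank depend in part on the replicate. The largest differences in rank were at RPL19, which was 72 for H3K4me3 and 6 for H3K27ac, at RPS26 with 65 and 2, at RPL24 with 58 and 7, at RPS14 with 62 and 12, and at RPL31 with 74 and 25. All of these ranked higher for H3K27ac. At RPL19 the H3K4me3 fold was 45.8 and 22.0, and the H3K27ac fold was 38.9 and 32.7. At RPS14, whose loss in human blood cells causes an anaemia, H3K4me3 reached 52.1 and 22.8 and H3K27ac reached 26.4 and 41.3.

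Members known for functions beyond translation were looked at whatever their values. RPL5 and RPL11, which can bind the p53 regulator MDM2 when ribosome assembly fails, had an H3K4me3 fold of 45.4 and 36.3 and of 47.8 and 29.0. Their H3K27ac folds were 30.6 and 35.1 at RPL5 and 19.95 and 22.01 at RPL11, without overlap between the genes. RPS6, the ribosomal target of the S6 kinases, had an H3K4me3 fold of 39.6 and 39.996 and an H3K27ac fold of 31.2 and 34.7. RPS19, mutated in Diamond-Blackfan anaemia, had 49.9 and 31.1 and an H3K27ac fold of 26.97 and 32.6. RPSA, the small-subunit protein also known as the laminin receptor, had 66.6 and 30.1, and 29.4 and 38.4 for H3K27ac.

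Ribosomal proteins that are made as fusions with ubiquitin or a ubiquitin-like domain also carried both marks. RPS27A, a ubiquitin fusion, had an H3K4me3 fold of 55.8 and 25.9 and an H3K27ac fold of 18.9 and 18.7. FAU, which falls outside the naming rule and carries a small-subunit protein behind a ubiquitin-like domain, had 64.6 and 37.1, and 16.8 and 17.3. RACK1, a signalling scaffold on the small subunit, had 50.3 and 34.0, and 25.1 and 28.6.

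The replicates ranked the members differently for H3K4me3 fold. The fold was higher in replicate 1 at 79 of 81 members, with a median ratio of 1.84 and a range of 0.958 at RPL17 to 3.35. Spearman's rho between the replicates was 0.244 over the 81 members and 0.746 over the 13423 protein-coding genes with a peak in both, and the members span a narrower range of folds than all genes do. The H3K4me3 width agreed better across the members, with a rho of 0.928. For H3K27ac the rho was 0.845 for the fold and 0.794 for the width over 82 members, and for CTCF it was 0.919 for the fold over 30 members. An order of single members by H3K4me3 fold therefore depended on the replicate, and the widths did not to the same degree. The ratio between the H3K4me3 replicates was weakly related to promoter GC content, with a rho of 0.215 over the members and 0.238 over all genes, and the part of GC content in it was not tested.

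**Figure D2:**
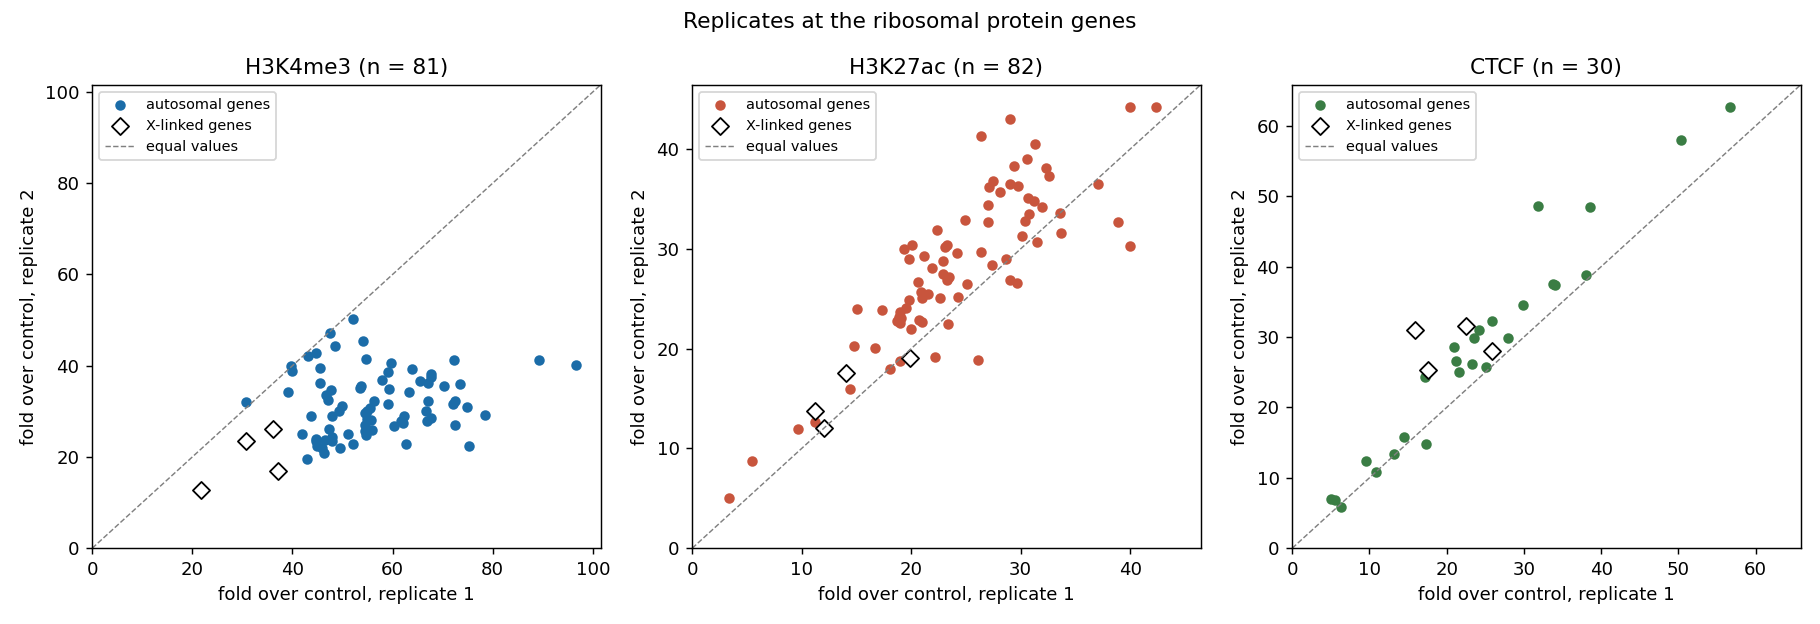
Fold over the control in replicate 2 against replicate 1 for each mark, where each point is a gene with a peak in both replicates, diamonds are the 4 X-linked genes and the dashed line marks equal values. H3K4me3 values lie below the line at 79 of 81 genes and scatter widely, whereas the 82 H3K27ac and 30 CTCF values follow the replicate more closely.

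Peaks at the members were wide. The median width of the lead H3K4me3 peak was 3937 and 4239 bp, or 4088 ± 214 bp (SD, n = 2), compared with 2740 and 2902 bp over all protein-coding genes with a peak. For H3K27ac it was 4028 and 4020 bp, or 4024 ± 5.30 bp (SD, n = 2), compared with 2441 and 2421 bp. These differences were larger than the spread between the replicates of either group. Of the members, 74 and 73 of 81 were wider than the median gene for H3K4me3, and 76 and 77 of 82 were for H3K27ac. They were not among the widest in the genome as a rule, as 23.5% and 18.5% exceeded the width that 10% of all genes exceed.

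The additional width lay within and beyond the gene body. The median downstream edge of the H3K4me3 peak was 2774 and 3063 bp from the start in the members and 1755 and 1847 bp in all genes. The upstream edge was at −1068 and −1090 bp in the members and −822 and −885 bp in all genes. Since the members are short, with a median annotated length of 3905 bp compared with 20695 bp, the peak spanned a median of 77.7% and 83.4% of the gene, compared with 6.26% and 6.69%. It ran past the annotated end of the gene at 24 of 81 members (29.6%) in each replicate, compared with 3.44% and 3.74% of all genes.

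Short genes as a group had narrower peaks than the members. Over the 2735 protein-coding genes of up to 10 kb with both marks, a group set after the widths were seen, the median H3K4me3 width was 2939 and 2963 bp. The 78 members of up to 10 kb had 3999 and 4268 bp. Their downstream edges were at 2838 and 3168 bp, compared with 1749 and 1767 bp, while the upstream edges were closer, at −1064 and −1076 bp compared with −972 and −1023 bp. Across the members the width was almost unrelated to gene length, with a rho of 0.160 and 0.143 over 81 genes.

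**Figure D3:**
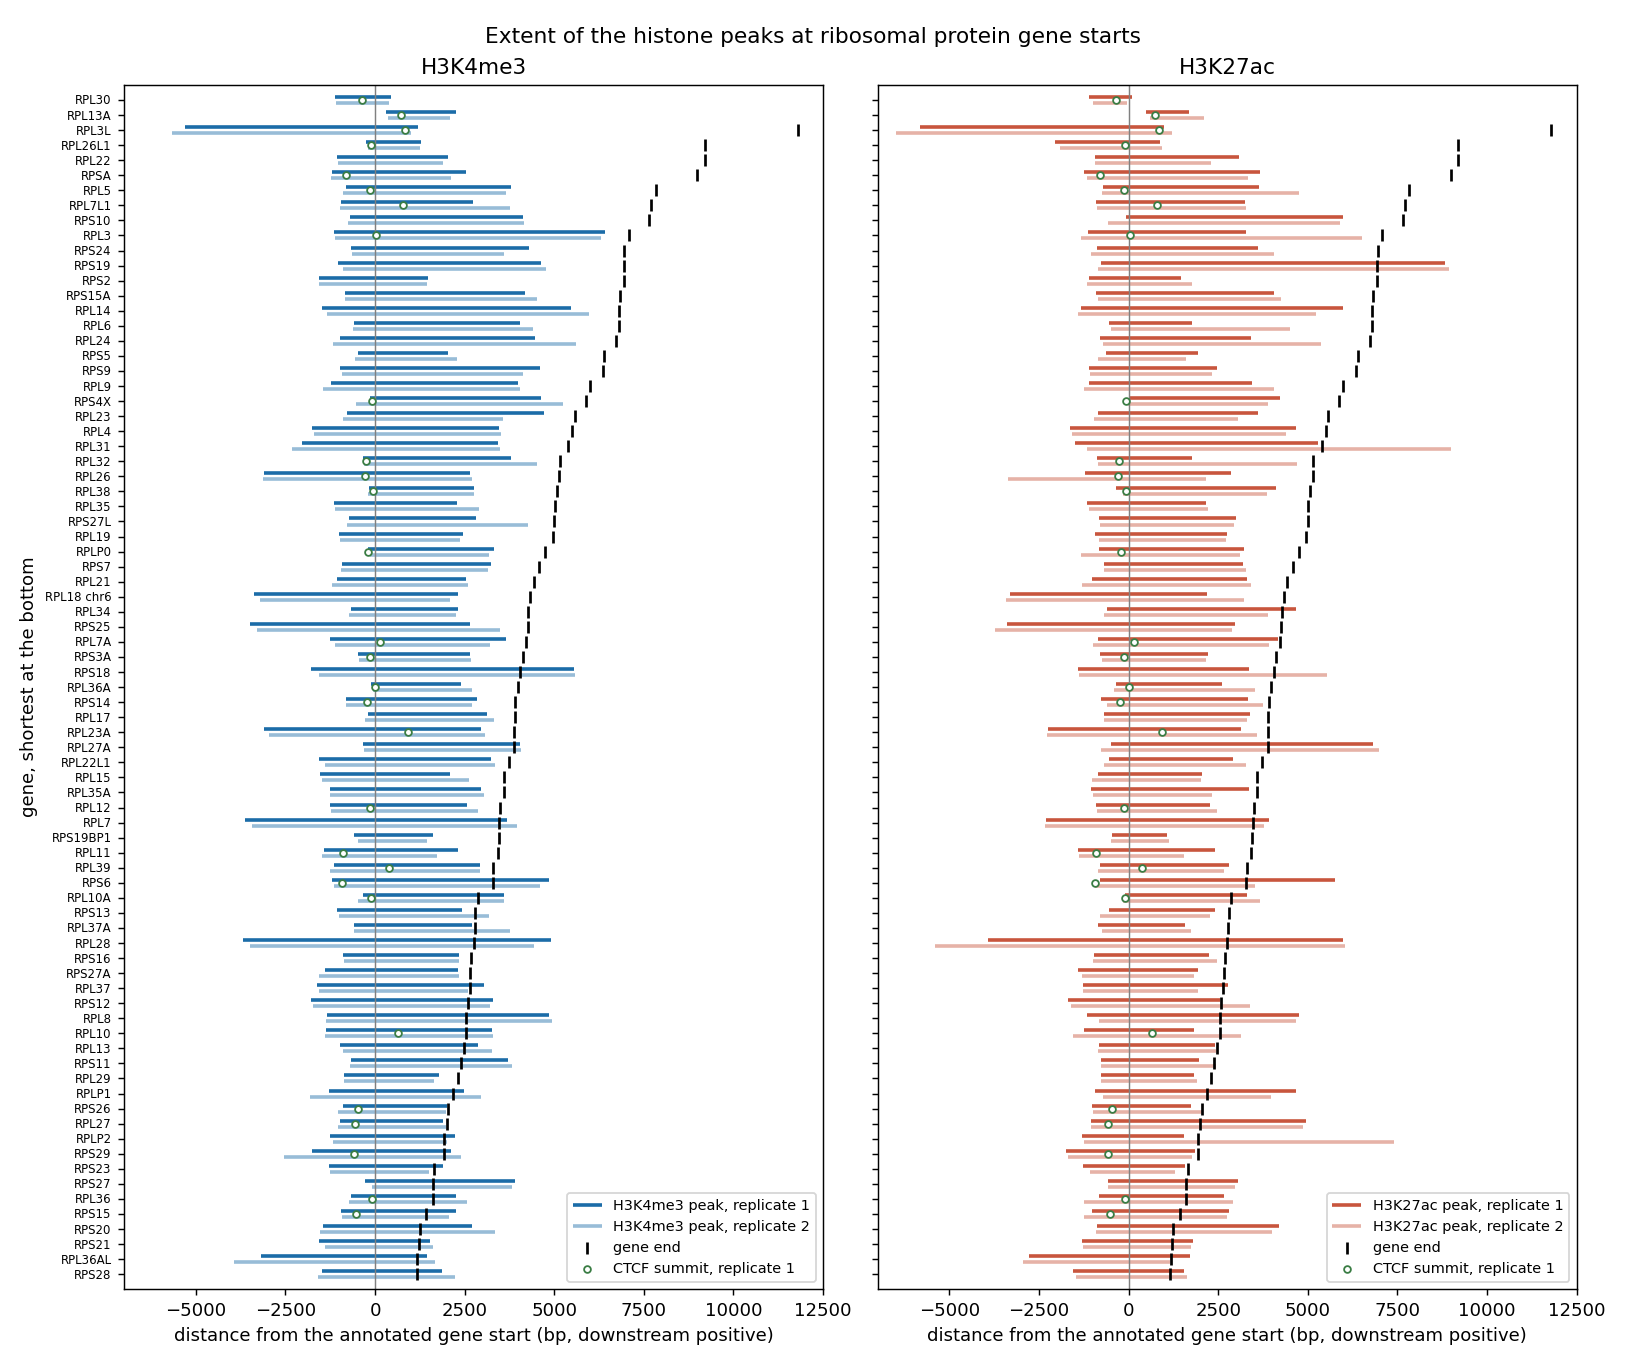
Extent of the lead H3K4me3 (left) and H3K27ac (right) peaks in bp from the annotated start, with a row for each of 79 of the 81 members with both marks, with replicate 1 in the dark and replicate 2 in the light colour, black ticks for gene ends and open circles for CTCF summits of replicate 1. Peaks reach further downstream than upstream at most genes and cross the gene end at many of the short genes in the lower rows; the ends of RPL13A and RPL30 lie outside the plot.

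By the mean of both replicates, the widest H3K4me3 peak was found at RPL28, with 8592 and 7912 bp over a gene of 2752 bp. RPL3 followed with 7552 and 7414 bp, RPL7 with 7320 and 7399 bp, RPS18 with 7325 and 7151 bp, and RPL14 with 6967 and 7302 bp. At RPL3, which reaches towards the peptidyl transferase centre, the peak covered most of a gene of 7072 bp. RPL26L1, RPL30, RPL13A, RPS19BP1 and RPL29 had the narrowest peaks, from 1550 and 1468 bp at RPL26L1 to 2643 and 2524 bp at RPL29. RPS19BP1, highest in fold in replicate 1, thus had a peak of only 2200 and 1925 bp.

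H3K27ac was widest at RPL28 as well, with 9914 and 11436 bp, and then at RPS19 with 9611 and 9817 bp. RPL31 with 6786 and 10157 bp and RPL27A with 7297 and 7774 bp were also among the widest 5. The H3K27ac width of RPL31 differed between replicates by more than that of these other 3. Narrow H3K27ac peaks were found at RPL30, RPL13A and RPS19BP1, the last with 1512 and 1615 bp, and RPL37A with 2417 and 2491 bp. The marks covered nearly the same ground. A median of 90.8% and 91.5% of the H3K4me3 peak was overlapped by the H3K27ac peak, and the H3K4me3 peak was the wider at 47 and 45 of 81 members.

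Summits of the histone marks lay mostly downstream of the start and those of CTCF mostly upstream, in the members as in all genes. The H3K4me3 summit was downstream of the start in both replicates at 64 of 81 members and upstream in both at 5, with a median position of 382 bp in replicate 1 and 702 bp in replicate 2. All genes had medians of 339 and 477 bp. The H3K27ac summit was downstream in both at 56 of 82 members, with a median position of 319.5 and 280 bp. All genes had medians of 283 and 263 bp for this mark. By replicate, H3K4me3 summits were downstream at 84.0% and 88.9% of members with a peak and at 81.8% and 79.0% of all such genes. For H3K27ac the shares were 73.2% and 76.8%, close to the 71.0% and 72.5% of all genes. CTCF summits were downstream at 30.0% and 30.6% of members and 43.0% and 45.5% of all genes. The CTCF summit was upstream in both at 21 of 30 members, and its medians were −136 and −131.5 bp, the former over 30 and the latter over the 36 members with a peak. Over all genes with a CTCF peak the medians were closer to the start, at −50.5 and −37.0 bp. Replicates placed CTCF summits within a median of 10 bp of each other, against 72 bp for H3K27ac and 319 bp for H3K4me3.

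**Figure D4:**
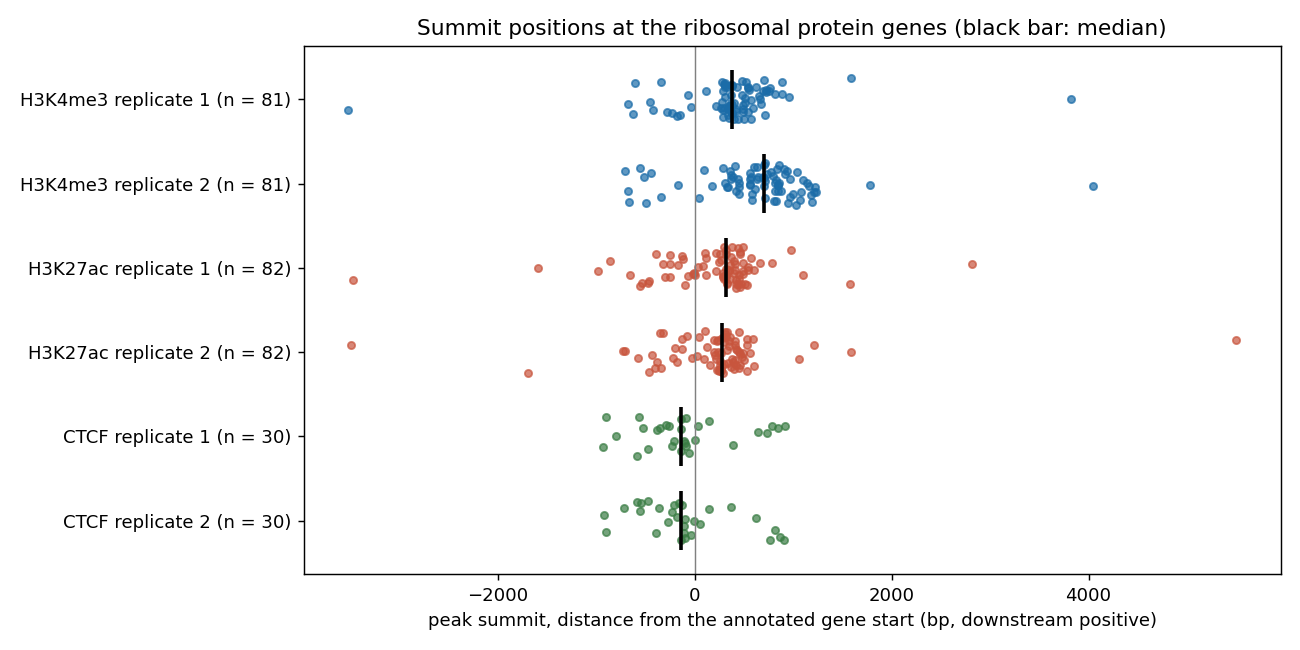
Position of the peak summit from the annotated gene start, in bp with downstream positive, for the members with a peak in both replicates; each point is a gene and black bars are medians. H3K4me3 and H3K27ac summits lie mostly downstream of the start, and 21 of 30 CTCF summits lie upstream in both replicates.

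CTCF was examined member by member. The strongest peak was at RPS29, with a fold of 56.7 and 62.7 and a summit at −583 and −585 bp. RPS26 had 50.3 and 58.0 at −472 and −476 bp, RPL26 had 38.6 and 48.5 at −292 and −182 bp, and RPS6 had 38.1 and 38.9 at −927 and −919 bp. RPL26L1, RPL5, RPL36, RPL10A and RPL13A were also among the 10 strongest. Except for RPL13A, with its summits at 735 and 761 bp downstream of a first start that is far from the others, all 10 had the summit upstream. All 9 small-subunit members with CTCF in both replicates had the summit upstream in replicate 1, compared with 12 of 21 in the large subunit.

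The weakest CTCF peaks found in both replicates were those of RPL12, with 5.07 and 7.01, RPL27, with 5.58 and 6.85, and RPL7L1, with 6.37 and 5.92. CTCF was present in both replicates at 21 of 52 large-subunit and 9 of 33 small-subunit members. At members with no CTCF peak in the 1 kb window, the nearest one was a median of 7414 and 7196 bp away. With a window of 5 kb the count rose from 30 to 47 members. A wider window can only add peaks, and neither this count nor these distances were set beside those of all genes.

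The CTCF core consensus, a motif of 12 bases, was searched within 100 bp of each CTCF summit on both strands. It was found at 2 of the 30 members, RPL5 and RPS4X, and at 17.4% and 16.1% of all CTCF peaks of replicates 1 and 2, compared with 0.163% and 0.131% of windows 1 kb away. With any base allowed at the third position, a form chosen after the sequences were seen, it was found at 6 of 30 members and at 24.3% and 22.7% of all CTCF peaks. The matches of the 4 members in which it lay upstream of the gene start are shown, with the core in capitals and 24 bases on either side.
RPL5 (chr4:124367717-124367776, minus strand): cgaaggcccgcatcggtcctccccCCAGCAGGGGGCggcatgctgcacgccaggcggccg
RPS4X (chrX:58155240-58155299, minus strand): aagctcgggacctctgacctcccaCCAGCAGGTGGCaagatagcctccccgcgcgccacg
RPL36A (chrX:83018260-83018319, plus strand): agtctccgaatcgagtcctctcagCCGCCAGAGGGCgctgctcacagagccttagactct
RPL30 (chr4:38701832-38701891, minus strand): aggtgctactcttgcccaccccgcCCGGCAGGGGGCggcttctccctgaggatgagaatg
The core was at −134 bp from the start at RPL5, at −90 bp at RPS4X, at −16 bp at RPL36A and at −359 bp at RPL30. At RPL30 this refers to the distant first start, which the opposite-strand gene ERICH5 shares at −106 bp. No CTCF peak lay within 1 kb of its second start, 14660 bp downstream, in either replicate. It was on the strand of the gene at RPL5, RPS4X and RPL36A and on the opposite strand at RPL30. At RPL10 and RPL13A it lay downstream, at 629 and 742 bp, on the strand of the gene. The match is a description of letters near a summit, and its absence elsewhere says nothing of binding.

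The 4 X-linked members had lower histone folds than most autosomal ones. RPS4X, whose human counterpart is known to escape X inactivation, had an H3K4me3 fold of 21.6 and 12.7. RPL36A had 37.1 and 16.9, RPL39 had 30.8 and 23.5, and RPL10 had 36.1 and 26.1. Their median was 33.4 and 20.2, compared with 54.7 and 31.1 over the autosomal members. H3K27ac had a median of 13.0 and 15.6 on chromosome X and of 23.4 and 28.9 on autosomes. Lower folds were shared by the chromosome as a whole, since all X-linked protein-coding genes had a median H3K4me3 fold of 29.2 and 15.1 and autosomal genes had 52.8 and 25.6. The number of X chromosomes in the cells is not given in the labels, and its part in these values was not tested.

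The median H3K4me3 width of the X-linked members was 4360 and 4438 bp, above the 3878 and 4239 bp of the autosomal ones, and their median H3K27ac width was 3334 and 3916 bp, below 4054 bp in each replicate. All 4 had CTCF in both replicates, with folds of 15.9 to 25.8 in replicate 1 and 25.3 to 31.6 in replicate 2, whereas 9.58% of X-linked protein-coding genes had it.

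Paralogs of ribosomal protein genes ranged from unmarked to strongly marked. RPL10L had no peaks. RPL26L1 had a narrow H3K4me3 peak with a fold of 54.6 and 25.7, an H3K27ac fold among the lowest, and strong CTCF at 33.8 and 37.5 with a summit at −100 bp in both replicates. Its parent gene RPL26 had an H3K4me3 peak of 5767 and 5841 bp and an H3K27ac fold of 20.9 and 25.6. RPL22L1, RPS27L and RPL7L1 resembled the canonical genes, with H3K4me3 folds of 48.4 and 44.3, 44.8 and 42.8, and 59.0 and 38.7. RPL36AL had 39.8 and 38.8, with 14.8 and 20.3 for H3K27ac. RPL3L, which replaces RPL3 in striated muscle, had 74.8 and 30.9 for H3K4me3 and 26.4 and 29.7 for H3K27ac at its first start in these fibroblasts. Its transcripts that begin 2966 and 3410 bp downstream had no H3K4me3 peak within 1 kb. There H3K27ac was found in replicate 2 only, with a fold of 3.35. The start of NDUFB10, a respiratory chain gene on the opposite strand, lay 743 bp inside RPL3L, and a peak over both starts cannot be given to either gene.

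Peaks shared with a neighbour were therefore counted. Another gene began within 1 kb on the opposite strand at 33 of 85 members and on the same strand at none. No share over all protein-coding genes was set beside these counts, which therefore describe the members only. Examples were ZWILCH at −19 bp from RPL4, TBL3 at −41 bp from RPS2, CLHC1 at −50 bp from RPS27A and LIAS at −89 bp from RPL9. Of the 52 members without such a neighbour, 49 carried both histone marks, and their median H3K4me3 width was 3900 bp as the mean of both replicates. CTCF was present in both replicates at 20 of these 52 and at 10 of the 33 with a neighbour.

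The members were next compared with other housekeeping complexes and with the genes of the translation pathway. Mitochondrial ribosomal proteins had both histone marks at 72 of 74 genes, proteasome subunits at 37 of 40, and nuclear genes of oxidative phosphorylation at all 49 that were matched. Presence of the marks thus did not set the members apart from these groups. The median H3K4me3 width was 2712 and 2761 bp for mitochondrial ribosomal proteins, 2930 and 3132 bp for the proteasome and 2754 and 2957 bp for oxidative phosphorylation, all below the 3937 and 4239 bp of the members. The median H3K4me3 fold was at least as high in the mitochondrial ribosomal proteins, with 61.7 and 31.3. Their median H3K27ac fold was 17.0 and 20.6, compared with 20.5 and 23.7 for the proteasome, 17.4 and 22.1 for oxidative phosphorylation and 23.3 and 28.2 for the members.

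Translation partners, the elongation and initiation factors and other genes with oligopyrimidine messenger RNAs, had both marks at 19 of 19 genes. They came closest to the members in width, with a median of 3975 and 4897 bp for H3K4me3 and 3545 and 4315 bp for H3K27ac. Among them EEF1A1, which delivers transfer RNA to the ribosome, had an H3K4me3 fold of 66.4 and 34.1 and a width of 6432 and 6297 bp. TPT1 had an H3K27ac fold of 39.1 and 48.8. The list of ribosome assembly also held genes of transcription such as MYC, RRN3 and POLR1B, which had CTCF in both replicates. This list had both marks at 26 of 26 genes, with a median H3K4me3 width of 3463 and 3584 bp. CTCF was present in both replicates at 10 of the 26 assembly genes (38.5%), 3 of 19 translation partners (15.8%), 21.6% of mitochondrial ribosomal proteins, 27.5% of proteasome genes and 20.4% of oxidative phosphorylation genes. The share in the members, 35.3%, was therefore within the range of these groups.

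**Figure D5:**
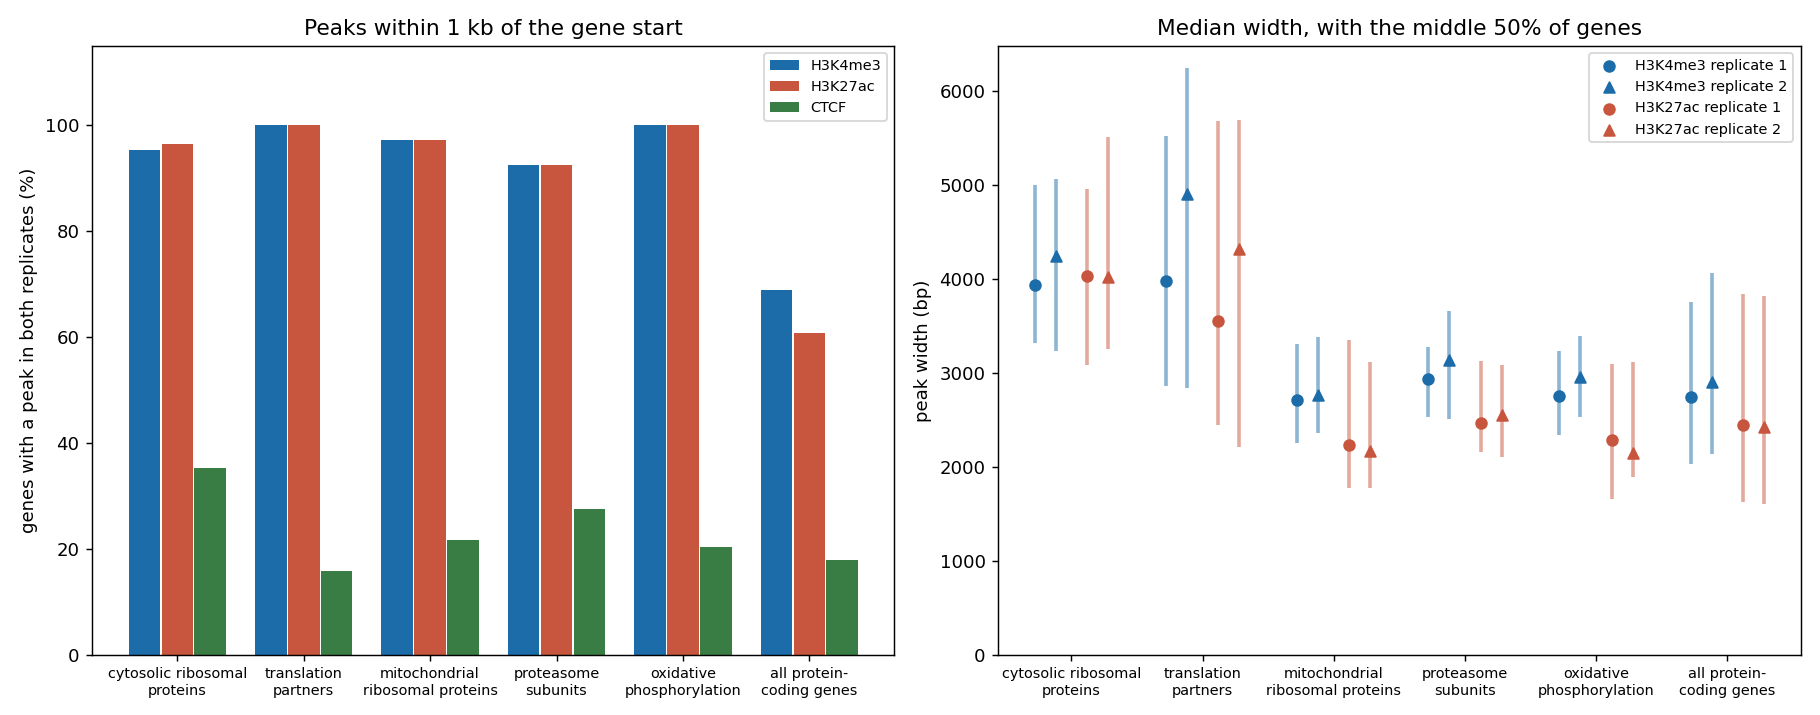
Left, share of genes in each list with a peak within 1 kb of the start in both replicates (bars, %), by mark; right, median width of the lead peak in bp (symbols, circles for replicate 1 and triangles for replicate 2) with lines over the middle 50% of genes. The histone marks are present at 92.5% or more of each housekeeping list, while the median widths of the cytosolic ribosomal proteins and translation partners, between 3545 and 4897 bp, lie above those of the other lists drawn.

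Copies of ribosomal protein genes without a symbol of their own were set beside the members. RefSeq annotates 58 such loci by their product, of which 23 are pseudogenes and 35 are called protein-coding. No histone peak was found in either replicate at 51 of the 58, and both marks were found in both replicates at 4. A copy of RPL39, a locus of 1 exon and 414 bp on chromosome 3 (positions 26188377 to 26188790), had an H3K4me3 fold of 71.3 and 33.7 over 6409 and 6689 bp. A copy of RPS24 on chromosome 16 had an H3K4me3 fold of 47.6 and 18.7 with an H3K27ac fold of only 3.03 and 2.85. Other gene starts near the copies were not set beside these peaks, which therefore cannot be given to the copies themselves. Of the 32 copies with 1 exon, 29 had no histone mark. Reads that map to several copies were removed by the authors, so a copy that is near-identical to its parent can lose signal, and the part of this in the counts was not tested.

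The promoter sequences, from 250 bases before to 50 bases after the start, were searched for 6 motifs on both strands. The ETS motif CCGGAAG was found in 34.1% of the members, 11.0% of all protein-coding promoters and 17.0% of those with both histone marks. The motif TCTCGCG, known as M4, was found in 14.1%, 4.39% and 6.57%, and the YY1 motif ATGGCGG in 12.9%, 4.53% and 6.61%. ETS was found in 16 of 40 proteasome genes and 20 of 74 mitochondrial ribosomal protein genes, and YY1 in 6 and 12 of them, whereas M4 was found in 3 (7.50%) and 5 (6.76%). The SP1 motif GGGCGG was found in 57.6% of the members, 50.7% of all promoters and 67.2% of those with both marks. TATAAA was found in 11.8%, 10.8% and 6.69%, and the E-box CACGTG in 8.24%, 7.93% and 9.88%. The motifs can overlap the tract and each other, and a match is not a binding site. Median GC content was 58.0% in the members and 58.7% in all genes, while the median ratio of observed to expected CpG was 0.838 and 0.650. Among genes with both histone marks the members were closer to the rest in this ratio, with 0.844 compared with 0.792. Their GC content was lower there, at 58.7% compared with 63.0%. Mitochondrial ribosomal protein genes had a CpG ratio of 0.803 and proteasome genes one of 0.783.

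The identity of the cells was checked on marker genes. All 12 fibroblast markers had both histone marks in both replicates. None of the 15 gene records for markers of epithelial, blood, endothelial, liver, muscle and pluripotent cells had both, 5 of them had H3K4me3, and H3K27ac was found only at SOX2 in replicate 2 with a fold of 2.77. The 6 libraries held 37932 to 81164 peaks. The lists give no read counts, so the depth behind each fold is unknown, and peaks from cells of different kinds cannot be told apart in bulk samples.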

How the data were processed

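H3K4me3, H3K27ac and CTCF ChIP-seq was performed on untreated PEFs with 2 replicates per mark. The authors aligned reads with Bowtie2, retained fragments that mapped uniquely, discarded duplicates (Picard) and ran MACS2 in narrow mode on each library. The build named in the submitters' processing notes is Sscrofa11.1. The deposited peak lists give, for each peak, its fold enrichment over the control, its −log10 p-value, its −log10 q-value and an integer score. The fold, a ratio without unit, was used as deposited, the q-value served as a filter in alternatives, and the score was not used. The methods name a q-value of 0.01, whereas the deposited lists reach 0.0499. Input libraries were not analysed here.

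Gene starts came from the RefSeq annotation of Sscrofa11.1. A peak was assigned when its interval reached within 1 kb of the start, and distances follow the direction of transcription. The reading of peaks was tested on simulated gene starts. Sequences were read from the RefSeq genome of the same build. Python 3.11.15, pandas 2.3.3, scipy 1.17.1, pysam 0.24.0 and edlib 1.3.9.post1 were used. The members and gene lists were chosen with earlier results of these data known. The lists of canonical ribosomal proteins, translation partners and assembly factors were written by hand; RPL41 and EIF4B were not matched, and of 38 further symbols of oxidative phosphorylation 11 were matched. Named genes were those lacking a histone mark, all paralogs, the 10 strongest CTCF members, the 5 highest and lowest folds and widths of each histone mark, the 5 largest rank differences between marks, and 14 genes set by function. A few of these genes are not reported here by name, although counts and medians include them. Motif examples, promoters printed, and the neighbours and copies named were chosen after their values were seen. Alternatives were another window around the start, stricter q-values, summits in place of intervals, any transcript start, canonical members only, a 50% overlap between replicates, the nearest peak, and each replicate left out.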

Additional observations from a re-analysis of the deposited data

How the results depend on the processing

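No paired analysis was possible because no result comes from a test, and the replicates of different marks share only a number. Of 88 values under 12 alternative settings, 77 stayed within 1.5 times the count or within the SD of the replicates, and 11 did not. The 77 include medians with a replicate left out, which could not differ by more than the SD. Their main value is the mean of the replicates at n = 2, so these medians say nothing of stability. A window of 5 kb raised the members with CTCF in both replicates from 30 to 47, with no count over all genes at that window. Restricting the list to members with no other gene start within 1 kb, an alternative added after the data were seen, left 49 members with H3K4me3, 49 with H3K27ac and 49 with both, since only 52 members remained. The median H3K27ac width of 4024 bp moved to 4032 bp with a −log10 q-value of at least 5, 4018 bp with a window of 5 kb, 4049 bp with 500 bp, 4075 bp with any transcript start, 4033 bp with canonical members, 3948 bp with summits within 1 kb and 3822 bp without neighbouring starts. All of these exceed the SD of 5.30 bp between replicates, which is small for n = 2. With summits in place of intervals, 65 members had H3K4me3, 75 had H3K27ac and 64 had both. Leaving out each replicate gave 30 to 36 members with CTCF, a median H3K4me3 fold of 30.8 to 54.6 and width of 3937 to 4239 bp, and a median H3K27ac fold of 23.3 to 28.2 and width of 4020 to 4028 bp. The 3 counts of histone marks did not move when either replicate was left out. The peak lists give no read counts, so how depth limits the peaks is unknown, and a gene without a peak is not shown to lack the mark.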
